A study of Mus musculus with 8 samples.

Results

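The genes described here encode the subunits of mitochondrial oxidative phosphorylation. They were taken by symbol from the array annotation (Ndufa, Ndufb, Ndufc, Ndufs, Ndufv, Sdha to Sdhd, Uqcr, Cox4 to Cox8 and Atp5), each gene read through its probe set with the highest mean. The rule took 87 genes of 17097 named on the array, and 86 of the 11706 genes that could be tested. The gene left out of the tests was Cox7b2, with values from 3.05 to 4.55 on the log2 scale. Those tested comprised 32 complex I genes, 7 complex I assembly factors (Ndufaf genes, which help build the complex but are not part of it), 4 of complex II, 7 of complex III, 18 of complex IV and 17 of complex V. The last, Ndufs5-ps, is annotated as a pseudogene of a complex I subunit. Ndufa4 and Ndufa4l2 were counted with complex IV.

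Oxidative phosphorylation takes place in the inner mitochondrial membrane. Complexes I and II pass electrons from NADH and succinate to ubiquinone, complex III passes them to cytochrome c and complex IV to oxygen. Complexes I, III and IV pump protons, and complex V, the ATP synthase, uses the resulting gradient to make ATP. Embryos at gastrulation are known to rely strongly on glycolysis, while the later heart, to which Mesp1-expressing mesoderm contributes, relies on respiration.

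All samples came from mouse embryos carrying Mesp1-rtTA and Teto-H2B-GFP, in which a transactivator made under the Mesp1 gene drives a GFP-tagged histone. The 4 groups were GFP+ and GFP- cells at embryonic day (E) 6.5 and the same fractions at E7.5, with 2 arrays per group and 50 sorted live cells per array. Both fractions carried both transgenes. The GFP- fraction held every cell without the reporter, and H2B-GFP is a stable protein, so a GFP+ cell need not still transcribe Mesp1. The labels name arrays as biological replicates 1 and 2 but not the number of embryos behind each, and p-values measure the spread between these arrays.

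The sort was visible in the arrays. Mesp1, the reporter's gene, measured 5.64 and 6.26 (replicates 1 and 2) in GFP- cells at E6.5 and 9.75 and 10.03 in GFP+ cells. At E7.5 it measured 7.76 and 8.06 in GFP- and 8.75 and 8.65 in GFP+ cells. Cdh1, encoding E-cadherin, measured 8.02 and 8.29 in GFP- and 5.84 and 6.14 in GFP+ cells at E6.5. The mean over 15 visceral endoderm markers was 6.03 and 7.80 in GFP- cells at E6.5, 4.45 and 4.80 in GFP+ cells at E6.5, 5.17 and 6.24 in GFP- cells at E7.5 and 5.36 and 5.23 in GFP+ cells at E7.5. The mean over 9 cardiomyocyte markers was 4.36 to 5.06 at E6.5 and 5.04 to 6.71 at E7.5. Fewer cells of a type and less RNA per cell cannot be told apart in these pooled cells. What these other cell types contribute to the differences below was not tested.

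For 70 of the 87 genes, RefSeq promoter windows of build GRCm38.p6 (250 bases before to 50 after the gene's start) were at hand, and 5 of these had several windows. The windows were searched on both strands for letters bound by factors known to act on respiratory genes. The NRF1 core GCATGCGC was found in 12 of the 70 (17.1%), against 3.05% of all 27025 genes with a window. The NRF1 palindrome, which is this core preceded by GC, was found in 7 (10.0% against 1.07%). The short YY1 letters AAGATGGC were found in 11 (15.7% against 3.19%), and the long YY1 motif, in which GGC follows them, in 5 (7.14% against 0.755%). The ETS letters CCGGAAGT were found in 4 (5.71% against 4.31%). The comparison takes in every gene with a window and is not matched on signal or base composition. A match describes letters and is no evidence of binding.

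Promoters are shown for genes whose values are described below, from 150 bases before to 30 after the start, 5′ to 3′ on the gene's strand, with matches in capitals. Cox8a (chr19:7217587-7217766, minus strand) holds the ETS letters on the opposite strand at -6. Uqcr11 (chr10:80406792-80406971, minus strand) holds ETS letters at -66 and the NRF1 core at -4. Ndufaf4 (chr4:24897933-24898112, plus strand) holds the NRF1 palindrome at -113 and the core on the opposite strand at 2. Ndufa3 (chr7:3617223-3617402, plus strand) holds the short YY1 letters at 23.
Cox8a: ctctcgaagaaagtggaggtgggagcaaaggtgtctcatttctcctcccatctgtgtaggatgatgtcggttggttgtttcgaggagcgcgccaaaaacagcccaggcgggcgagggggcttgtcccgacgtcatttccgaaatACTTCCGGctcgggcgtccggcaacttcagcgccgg
Uqcr11: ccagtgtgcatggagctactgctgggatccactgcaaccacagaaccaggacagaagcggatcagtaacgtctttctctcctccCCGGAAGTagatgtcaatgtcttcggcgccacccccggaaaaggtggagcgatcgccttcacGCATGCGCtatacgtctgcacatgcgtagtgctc
Ndufaf4: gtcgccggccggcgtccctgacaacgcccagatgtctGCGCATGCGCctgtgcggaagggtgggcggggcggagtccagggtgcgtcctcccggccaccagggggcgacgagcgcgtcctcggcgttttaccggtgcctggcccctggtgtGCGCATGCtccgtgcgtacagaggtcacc
Ndufa3: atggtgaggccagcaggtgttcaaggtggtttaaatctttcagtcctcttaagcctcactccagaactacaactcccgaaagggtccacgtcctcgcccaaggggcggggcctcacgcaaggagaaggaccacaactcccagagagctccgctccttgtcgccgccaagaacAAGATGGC

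Most of the respiratory chain genes gave a signal in the upper part of the array's range in every sorted population. All 86 tested genes exceeded 4.38, the overall median of the deposited table, on each of the 8 arrays, as did 71.2% of all genes tested. Being tested already required at least 2 of 8 arrays above that level, which Cox7b2 did not reach. Cox6a2, Cox8b and Cox8c stayed between 4.92 and 6.02, and whether such values are background was not tested. The tested genes also varied little. The range over the 8 arrays had a median of 0.60 on the log2 scale for these genes and 1.22 for all genes. It was under 1 (a 2-fold span) for 73 of 86 (84.9%), against 35.7% of all genes, and over 2 for 3 (3.49%), against 16.1%. These were Cox4i2, Ndufaf3 and Ndufaf5. Of the 86, 74 were among the 2927 genes with a mean of at least 7.78, so the comparison with all genes is not matched on signal.

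No oxidative phosphorylation gene passed the test between fractions at E6.5 (limma, Benjamini-Hochberg adjusted p under 0.05 over all genes), where 0.0769% of all genes passed. None passed at E7.5 (0% of all genes), nor between E6.5 and E7.5 in GFP+ cells (0.0256%) or in GFP- cells (0.094%). None passed for the interaction of fraction and stage (0%), for the fraction difference averaged over stages (0.00854%) or for the stage difference averaged over fractions (0.256%). The smallest adjusted p among the 86 in these limma fits was 0.272, for Cox4i2 between stages. At an unadjusted limma p under 0.05, 1 of 86 was found between fractions at E6.5 (Ndufaf4; 5.73% of all genes), 0 at E7.5 (2.41%), 0 between stages in GFP+ cells (3.85%), 1 in GFP- cells (Cox4i2; 6.48%) and 0 for the interaction (2.71%). There was 1 for the fraction averaged over stages (Ndufaf4; 5.47%) and 1 for the stage averaged over fractions (Cox4i2; 7.2%). With so few genes called on the whole array, a count of 0 among 86 is not distinctive in itself, and the size of the differences and their intervals say more.

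The typical difference was small. Between fractions at E6.5 the median over the 86 genes was 0.03 (GFP+ minus GFP-, log2) and that over all genes 0.01. At E7.5 it was 0.07 beside -0.01. From E6.5 to E7.5 it was 0.07 in GFP+ cells beside -0.03 for all genes, and 0.01 in GFP- cells beside -0.01. The median size regardless of sign was 0.12 between fractions at E6.5, against 0.23 over all genes and 0.19 over those 2927 bright genes. At E7.5 the corresponding sizes were 0.12, 0.21 and 0.15. Across stages they were 0.11, 0.22 and 0.19 in GFP+ cells and 0.12, 0.25 and 0.19 in GFP- cells. In each of these comparisons the median size for the respiratory genes was the smallest of the 3.

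**Figure D1:**
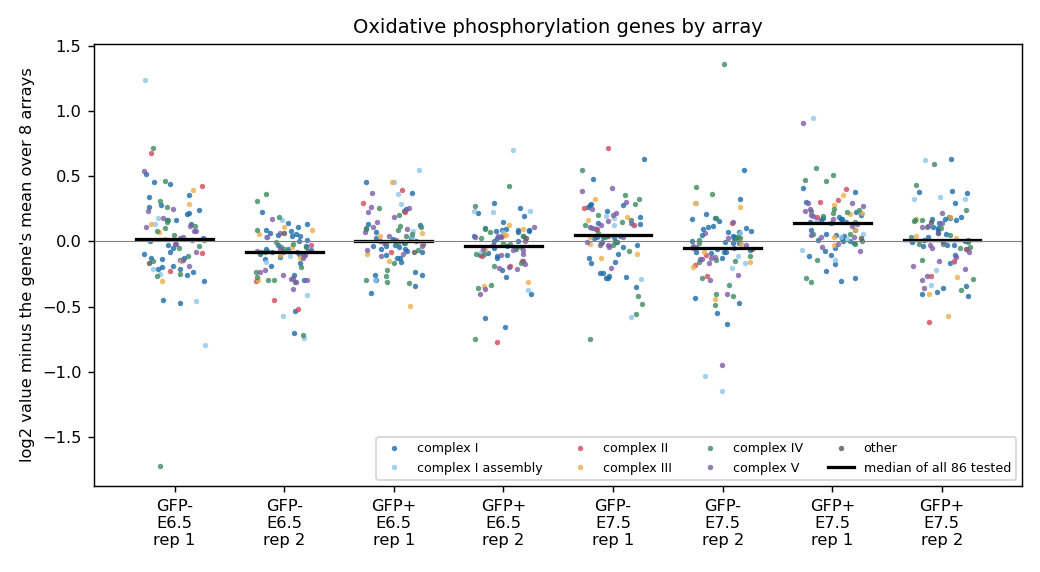
Each point is 1 of the 86 tested genes on 1 array, as its log2 value minus its own mean over the 8 arrays, coloured by complex; black lines are medians over the 86 genes. The medians stay between -0.08 and 0.14, and the few points beyond 1 belong to assembly factors and complex IV.

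The intervals reflect the spread between arrays for the 1 probe set used per gene. They do not cover differences between probe sets of a gene. The 95% interval of the fraction difference averaged over stages lay within 1 log2 unit either way for 80 of 86 genes (58.8% of all genes). For the stage difference averaged over fractions it did so for 79 (57.4%). Within a single stage the intervals were wider: they lay within 1 unit for 56 genes at E6.5 (25.8% of all genes) and for 62 at E7.5 (27.8%). Between stages they did so for 63 in GFP+ cells (26.4%) and 59 in GFP- cells (24.6%). For the interaction 13 did (2.54%), so for most subunits the interval still included a 2-fold change of the fraction difference between stages.

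A list of 19 nuclear-encoded subunits was taken as the core of the complexes. For complex IV these were Cox4i1, Cox5a and Cox5b. No subunit encoded in mitochondrial DNA is on the list, so it does not hold the whole catalytic core of every complex. Among the 19, the fraction difference averaged over stages ran from -0.38 (Sdhc) to 0.25 (Uqcrfs1). The stage difference ran from -0.23 (Uqcrfs1) to 0.26 (Ndufs1). The interval lay within 1 unit for 18 of the 19 in each comparison, Sdhc being the exception in both.

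**Figure D2:**
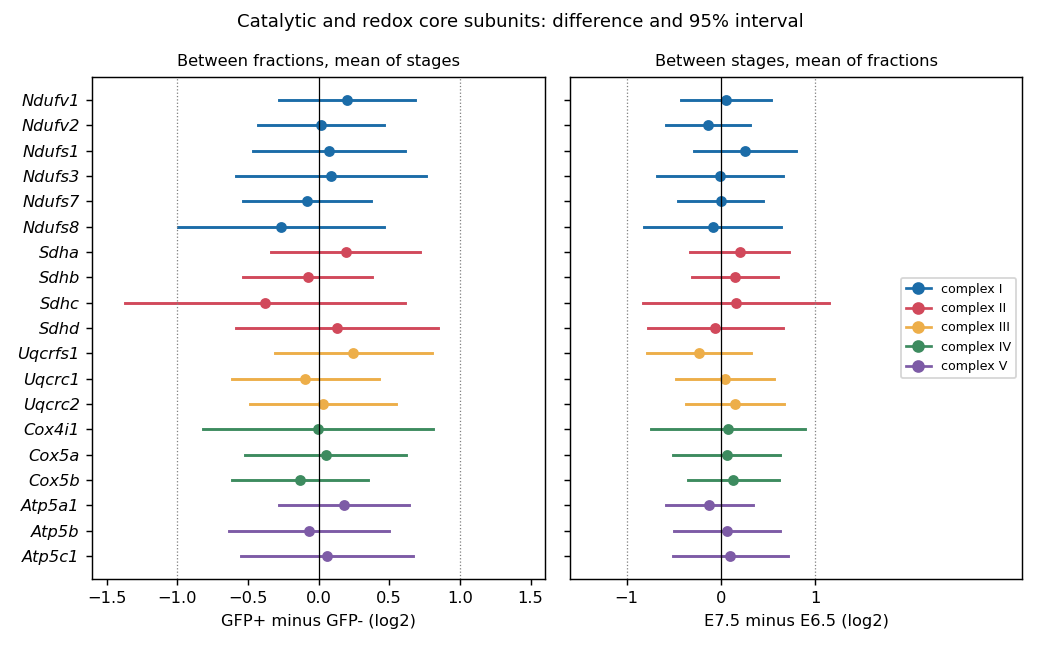
Fitted difference (point) and 95% interval (bar) on the log2 scale for the 19 nuclear-encoded subunits of the core list. The left panel is between fractions (GFP+ minus GFP-) and the right panel between stages (E7.5 minus E6.5). Dotted lines mark 1 unit either way. Each interval crosses 0, and Sdhc has the widest.

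Complex I accepts electrons from NADH through the flavoprotein Ndufv1. This gene measured 9.92 and 10.19 in GFP- and 10.41 and 10.09 in GFP+ cells at E6.5, and 10.01 and 10.20 in GFP- and 10.27 and 10.35 in GFP+ cells at E7.5. The fractions overlapped at E6.5, and the mean difference was 0.20. Over the 32 complex I genes the median fraction difference was 0.01 at E6.5 (range -0.39 to 0.39) and 0.03 at E7.5 (-0.34 to 0.34). The median stage difference was 0.09 in GFP+ and 0.01 in GFP- cells.

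The 32 genes differed in how closely the arrays agreed. Ndufs6, an accessory subunit, stayed between 10.24 and 10.39 on all 8 arrays. Ndufa12, another accessory subunit, stayed between 11.21 and 11.44. Ndufs7, which carries the iron-sulphur cluster next to the quinone site, stayed between 10.78 and 11.01. Through the probe set used, each of these genes spanned at most 0.24 over all fractions, stages and replicates. Second probe sets ranged more widely, from 9.05 to 9.49 for Ndufa12 and from 9.72 to 10.09 for Ndufs7.

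The largest stage difference in complex I was that of Ndufa8, an accessory subunit. It measured 9.59 and 9.01 in GFP- and 10.09 and 9.06 in GFP+ cells at E6.5, and 9.98 and 10.26 in GFP- and 9.86 and 9.89 in GFP+ cells at E7.5. Replicate 2 at E6.5 was low in both fractions, and GFP+ values overlapped between stages. The stage difference averaged over fractions was 0.56 (SE 0.29), made of 0.08 in replicate 1 and 1.04 in replicate 2. Ndufv3, another accessory subunit, was the lowest at E7.5 relative to E6.5, by -0.37 (SE 0.22). Its values were 10.20 to 10.57 at E6.5 and 9.81 to 10.26 at E7.5, which overlap.

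Ndufs4, an accessory subunit whose loss causes complex I deficiency, was the complex I gene with the largest mean fraction difference. It measured 9.37 and 9.81 in GFP- and 9.93 and 10.03 in GFP+ cells at E6.5, and 9.56 and 9.92 in GFP- and 9.61 and 10.47 in GFP+ cells at E7.5. The fractions were apart at E6.5 and overlapped at E7.5, with a mean difference of 0.35 (SE 0.27). A second probe set of the gene gave 0.91 at E6.5 and -0.79 at E7.5. At the other end Ndufb4 gave -0.30 averaged over stages. Its other probe sets, with means of 9.14 and 4.14, gave -0.06 and 0.23.

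For the 7 assembly factors of complex I taken by the rule, the median fraction difference was 0.30 at E6.5, 0.24 at E7.5 and 0.31 averaged over stages. In that average 6 of 7 were higher in GFP+ cells, and the median over all genes was 0.003. None of the 7 passed the test. Within replicate 1 the median was 0.18 at E6.5, -0.01 at E7.5 and 0.05 averaged over stages, and within replicate 2 it was 0.35, 0.28 and 0.25. Ndufaf4 measured 7.36 and 7.08 in GFP- and 8.28 and 8.06 in GFP+ cells at E6.5, so the fractions were apart. At E7.5 it measured 8.0 and 7.66 in GFP- and 8.0 and 8.15 in GFP+ cells. The E6.5 difference was 0.94 (SE 0.29, interval 0.25 to 1.63), with 0.91 and 0.97 within the 2 replicate numbers, at an adjusted limma p of 0.529. Ndufaf4 was singled out after its values were seen. Its second probe set gave 0.22 at E6.5, -0.26 at E7.5 and -0.02 averaged over stages. The probe set used gave 0.24 at E7.5 and 0.59 averaged over stages, so the place of Ndufaf4 among the 6 rests on that probe set.

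Ndufaf5, which modifies Ndufs7 during assembly, measured 5.06 and 5.89 in GFP- and 6.14 and 6.56 in GFP+ cells at E6.5. At E7.5 it measured 6.05 and 4.71 in GFP- and 6.80 and 5.64 in GFP+ cells. GFP+ exceeded GFP- within each replicate number at both stages, while the groups overlapped at E7.5. The mean difference was 0.86 (SE 0.42, interval -0.12 to 1.84). Leaving out single arrays moved it between 0.52 (without GFP- replicate 2 at E7.5) and 1.20. Ndufaf3 spread over 2.27 units with no order by group: 7.78 and 5.97 in GFP- and 7.09 and 6.17 in GFP+ cells at E6.5, then 6.25 and 5.51 in GFP- and 6.40 and 7.17 in GFP+ cells.

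Complex II, succinate dehydrogenase, links the tricarboxylic acid cycle to the chain, and all 4 of its genes were measured. Sdha, the flavoprotein, measured 9.27 and 9.19 in GFP- and 9.79 and 9.35 in GFP+ cells at E6.5, and 9.76 and 9.39 in GFP- and 9.80 and 9.44 in GFP+ cells at E7.5. GFP- cells at E6.5 held the lowest values, and the mean fraction difference was 0.19 (SE 0.22). Sdhb, the iron-sulphur subunit, ran from 9.13 to 9.46 over all arrays. Sdhd, a membrane anchor, ran from 5.48 to 6.42.

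Sdhc, the other membrane anchor, measured 8.91 and 7.79 in GFP- and 8.47 and 7.46 in GFP+ cells at E6.5. At E7.5 it measured 8.96 and 8.06 in GFP- and 8.64 and 7.62 in GFP+ cells. GFP+ was lower in all 4 pairs of same-numbered arrays, by differences of -0.45, -0.33, -0.32 and -0.44. The replicate numbers lay further apart than the fractions, replicate 1 being 1.01 higher on average. The mean fraction difference was -0.38 (SE 0.42, adjusted p of 1.00 by limma). That SE includes the offset between the replicate numbers.

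Complex III, the cytochrome bc1 complex, had a median fraction difference of -0.14 at E6.5 and 0.02 at E7.5 over 7 genes. Uqcrfs1, the Rieske iron-sulphur protein, measured 7.82 and 7.69 in GFP- and 8.26 and 7.89 in GFP+ cells at E6.5, and 7.83 and 7.35 in GFP- and 8.02 and 7.52 in GFP+ cells at E7.5. Its fraction difference averaged 0.25 and its stage difference -0.23. The core proteins differed less between fractions: Uqcrc1 ran from 9.24 to 9.85 and Uqcrc2 from 9.87 to 10.44 over the 8 arrays. Uqcrq, a small subunit, was the lowest in GFP+ cells, by -0.21 averaged over stages. A second kept probe set of Uqcrq, with a lower mean of 5.29, gave 0.22.

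Complex IV, cytochrome c oxidase, held the gene with the largest differences of the whole set. Cox4i2 encodes the alternative isoform of subunit 4, known from lung and from cells at low oxygen. It measured 5.21 and 6.21 in GFP- and 6.61 and 6.97 in GFP+ cells at E6.5, and 7.13 and 8.29 in GFP- and 7.49 and 7.52 in GFP+ cells at E7.5. All 4 values at E7.5 lay above all 4 at E6.5, and GFP- cells at E6.5 held the lowest. The stage difference in GFP- cells was 2.0 (SE 0.49, interval 0.86 to 3.15), at 1.93 and 2.08 within the replicate numbers and an adjusted limma p of 0.325. In GFP+ cells it was 0.71 (SE 0.49).

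Averaged over fractions, Cox4i2 was 1.36 higher at E7.5 (SE 0.35, interval 0.55 to 2.17). The adjusted p was 0.272 by limma. Leaving out single arrays moved the difference between 1.07 and 1.65. Between fractions it was 1.08 higher in GFP+ cells at E6.5 (SE 0.49) and -0.21 at E7.5, an interaction of -1.29 (SE 0.69). Without GFP- replicate 1 the E6.5 difference was 0.58. The visceral endoderm marker means given above were, on average, highest in that group; the part of those cells in this difference was not tested.

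Cox4i1, the common isoform of the same subunit, showed no such pattern. It measured 11.02 and 10.45 in GFP- and 11.02 and 10.40 in GFP+ cells at E6.5, and 11.31 and 10.28 in GFP- and 11.23 and 10.39 in GFP+ cells at E7.5. Replicate 1 was higher than replicate 2 in every group, by 0.77 on average, and the group means differed by at most 0.10 between stages. The stage difference was 0.08 and the fraction difference -0.00, averaged over the other factor.

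The isoforms known from muscle, heart or testis differed in their spread, beside the median range of 0.60 over all subunits. Cox6a2, the heart and muscle form of subunit 6a, ran from 4.92 to 5.76. Cox8b, the corresponding form of subunit 8, ran from 5.63 to 6.02, and Cox8c, a testis form, from 5.89 to 6.02. Cox7a1, the muscle form of subunit 7a, measured 6.94 and 6.47 in GFP- and 6.41 and 6.5 in GFP+ cells at E6.5, and 5.73 and 6.51 in GFP- and 6.67 and 6.58 in GFP+ cells at E7.5. A single low array, GFP- replicate 1 at E7.5, stood apart for Cox7a1. Ndufa4l2, a hypoxia-responsive relative of Ndufa4, ran from 5.55 to 6.38, and its stage difference was -0.01.

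Cox8a, the common form of subunit 8, changed sign between stages. It measured 11.39 and 10.44 in GFP- and 10.38 and 9.92 in GFP+ cells at E6.5, and 10.96 and 10.27 in GFP- and 11.19 and 10.83 in GFP+ cells at E7.5. GFP+ was lower in both replicate numbers at E6.5, by differences of -1.01 and -0.52, and higher in both at E7.5, by 0.22 and 0.56. The fraction difference was -0.77 (SE 0.43) at E6.5 and 0.39 (SE 0.43) at E7.5. The interaction was 1.16 (SE 0.61, interval -0.28 to 2.59) at an adjusted limma p of 1.00. A second probe set gave an interaction of 1.48. Without GFP- replicate 1 at E6.5 the interaction was 0.68.

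Cox8a was 1 of 9 genes (10.5%) that were lower in GFP+ cells in both replicate numbers at E6.5 and higher in both at E7.5, a pattern found in 5.52% of all genes. The others were Cox5b and Cox6a1 of complex IV, Ndufa3, Ndufa6 and Ndufb3 of complex I, Uqcr11 of complex III, and Atp5e and Atp5g2 of complex V. Cox5b measured 11.32 and 10.99 in GFP- and 10.79 and 10.68 in GFP+ cells at E6.5, and 11.14 and 10.86 in GFP- and 11.25 and 11.06 in GFP+ cells at E7.5. Ndufa3 gave -0.39 at E6.5 and 0.18 at E7.5, and Uqcr11 gave -0.14 and 0.23. The pattern was read through 1 probe set per gene. Second probe sets of Cox8a and Ndufa3 kept it, while those of Cox5b and Cox6a1 did not. In replicate 1 at E7.5 these gave 11.217 in GFP+ against 11.220 in GFP- cells (Cox5b) and 11.23 against 11.28 (Cox6a1). The reverse pattern was found in 5 genes (5.81%; 6.68% of all genes), namely Atp5b, Atp5c1, Atp5pb, Ndufa8 and Ndufaf6. No interaction passed the test. At E7.5 alone, GFP+ cells were higher in both replicate numbers for 39 genes (45.3%; 24.8% of all genes) and lower in both for 12 (14%; 26.3%). At E6.5 these counts were 27 (30.6% of all genes) and 22 (28.1%). The 39 included 12 of the 18 complex IV genes, 12 of the 32 complex I, 3 of the 7 complex III and 8 of the 17 complex V genes. Lower in both at E7.5 were 0 of the complex IV, 6 of the complex I, 0 of the complex III and 3 of the complex V genes. The shares over all genes are not matched on signal, and all genes share the same arrays. The median E7.5 difference over the 86 was 0.07, and leaving out single arrays moved it between 0.016 and 0.118.

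**Figure D3:**
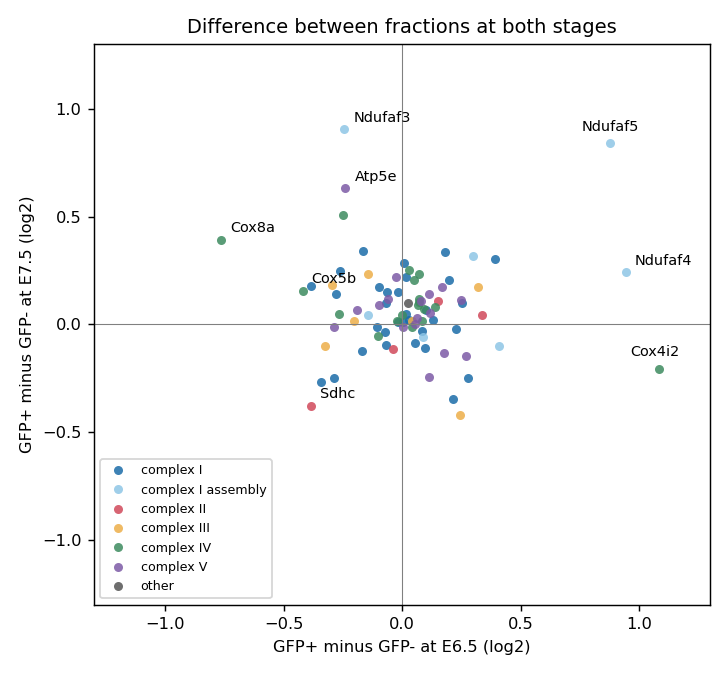
GFP+ minus GFP- difference (log2) at E6.5 (x axis) and at E7.5 (y axis), 1 point per tested gene, coloured by complex. Most genes crowd around 0 on both axes; Cox4i2 and the assembly factors Ndufaf4 and Ndufaf5 lie to the right, Cox8a to the upper left and Sdhc to the lower left.

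Complex V, the ATP synthase, differed little by fraction or stage. Its catalytic beta subunit, Atp5b, measured 11.14 and 10.75 in GFP- and 11.29 and 10.82 in GFP+ cells at E6.5, and 11.28 and 11.09 in GFP- and 11.21 and 10.68 in GFP+ cells at E7.5. The alpha subunit, Atp5a1, measured 10.91 and 11.16 in GFP- and 11.36 and 11.21 in GFP+ cells at E6.5, and 10.89 and 11.06 in GFP- and 11.03 and 11.16 in GFP+ cells at E7.5. The mean fraction difference was -0.07 for Atp5b and 0.18 for Atp5a1. Over the 17 genes the median fraction difference was 0.06 at E6.5 and 0.07 at E7.5, and the median stage difference 0.05 in GFP+ and 0.02 in GFP- cells.

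The 3 genes for subunit c, whose ring turns with the proton flow, gave stage differences of -0.16 (Atp5g1), -0.02 (Atp5g2) and 0.03 (Atp5g3). Atp5e, the epsilon subunit of the stalk, spread most: 9.87 and 8.96 in GFP- and 9.42 and 8.93 in GFP+ cells at E6.5, then 9.71 and 8.38 in GFP- and 10.24 and 9.12 in GFP+ cells at E7.5. Replicate 1 was higher in each group for Atp5e, by 0.96 on average. The fraction difference was 0.63 at E7.5 and -0.24 at E6.5.

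**Figure D4:**
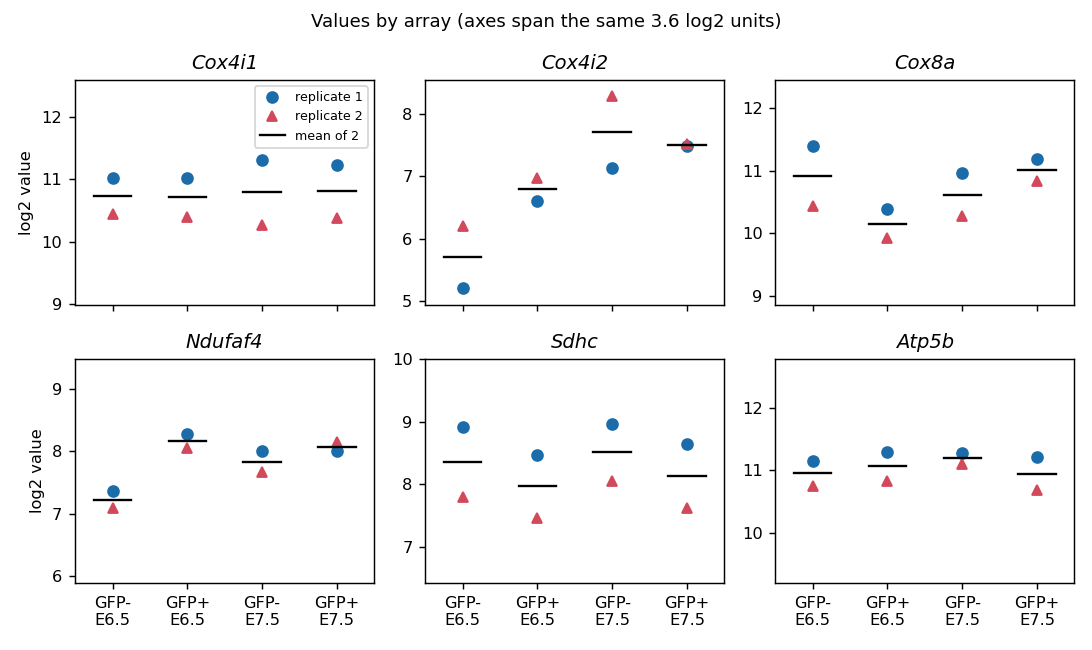
Log2 value on each array for 6 genes (blue circles replicate 1, red triangles replicate 2, bars the mean of 2 arrays); every panel spans the same number of log2 units. Cox4i2 is lowest in GFP- cells at E6.5, Cox8a is lower in GFP+ cells at E6.5 and higher at E7.5, and for Cox4i1 and Sdhc the replicate numbers lie further apart than the groups.

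The offset between replicate numbers exceeded both the fraction and the stage difference (each averaged over the other factor) in 53 of 86 genes (61.6%), a share near the 58.1% of all genes. The median size of the offset was 0.24, against 0.39 over all genes. Its signed median (replicate 1 minus replicate 2) was 0.08 for these genes and -0.19 for all genes. Among the largest were Sdhc at 1.01, Atp5e at 0.96 and Cox4i1 at 0.77; Cox7c, a small complex IV subunit, gave -0.70.

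Different probe sets of a gene gave a further measure of error. For 40 genes with several probe sets kept, the fraction differences had opposite signs in 11 at E6.5 and in 18 at E7.5. The median spread between probe sets of a gene was 0.19 at E6.5 and 0.16 at E7.5, against a median size of 0.12 for the fraction difference itself at both stages. The widest was Atp5c1, the gamma subunit, at 1.29 at E7.5.

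Genes around the respiratory chain were counted in the same way. Of 102 genes tested in 6 further lists, 0 passed in any comparison; at an unadjusted limma p under 0.05 there were 0 between fractions at E6.5 (5.73% of all genes), 2 at E7.5 (2.41%), 2 between stages in GFP+ cells (3.85%), 3 in GFP- cells (6.48%) and 2 for the interaction (2.71%). Averaged over the other factor there were 2 between fractions (5.47%) and 5 between stages (7.2%). Single genes of these lists reached further than most subunits, from -1.74 to 1.04 between stages in GFP- cells among the biogenesis genes. The 31 further assembly factors of the chain, none of them an Ndufaf gene, had a median fraction difference of -0.02 at E6.5, 0.02 at E7.5 and -0.01 averaged over stages. Their median stage difference averaged over fractions was 0.10, that of the 14 electron carriers and coenzyme Q genes -0.07, of the 12 tricarboxylic acid cycle genes 0.02, of the 9 genes of pyruvate oxidation -0.03, of the 16 of mitochondrial biogenesis -0.14 and of the 20 of protein import -0.07. Cycs, encoding cytochrome c, measured 10.73 and 10.50 in GFP- and 10.78 and 10.68 in GFP+ cells at E6.5, and 10.96 and 10.57 in GFP- and 11.02 and 10.73 in GFP+ cells at E7.5. The subunits encoded in mitochondrial DNA could not be tested, since 0 of 26 symbols searched for had a probe set with 1 gene symbol.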

How the data were processed

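The 8 arrays were Affymetrix mouse perfect-match arrays, hybridized with cDNA amplified for 25 PCR cycles from 50 cells, per the labels' protocols. The deposited table holds a log2 value for each probe set, which the authors computed with RMA per the submitters' processing notes; a genome build is not given in the sources used here. Array medians were 4.20 to 4.23 for replicate 1 and 4.54 to 4.59 for replicate 2, so the replicate numbers look scaled apart. The small number of arrays limits the precision, as do the offset between replicate numbers and differences between probe sets of a gene.

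Of 45141 probe sets, 28898 had 1 gene symbol, 551 had several and were left unnamed. Probe sets with at least 2 of 8 arrays above 4.38 were kept, and each gene was read through its brightest one. Differences were tested with limma 3.58.1 (R 4.3.3) on all 8 arrays, a mean per group and no block, with Benjamini-Hochberg adjustment over 11706 genes; the code was tested on simulated data. Intervals are 95% and tests two-sided. Alternatives were a replicate block, no filter, the mean of a gene's probe sets, quantile normalization, only the arrays compared, a looser threshold and each array left out.

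Named genes were those past the threshold, the largest differences per complex with 1 sign in both replicate numbers, complex II, core subunits and isoforms; Ndufaf3, Ndufaf4, Atp5e, Ndufs6, Ndufa12 and the genes changing sign were chosen after their values were seen. The members and all lists were chosen with earlier results of these data known.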

Additional observations from a re-analysis of the deposited data

How the results depend on the processing

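The labels give the groups shared replicate numbers but no shared embryos. Arrays with the same number deviated together from the group means across genes in all 6 pairs of groups (r from 0.401 to 0.532), a hint from the data and not from the design. In a fit with a replicate block, 0 members were called in each of the 7 comparisons, the smallest adjusted p being 0.0770 (limma; Cox4i2 between stages). For Sdhc between fractions the replicate block lowered the SE from 0.42 to 0.12, and the unadjusted p came under 0.05 while the adjusted p was 0.362. That block moved the count over all genes from 9 to 30 between fractions at E6.5, from 11 to 39 between stages in GFP- cells, from 1 to 8 for the fraction averaged over stages and from 30 to 94 for the stage averaged over fractions. The count of members called was also 0 under the other alternatives run, an adjusted p under 0.10 included. The median difference between stages in GFP+ cells, 0.066, was 0.081 with the mean of all probe sets and 0.093 after quantile normalization over all 8 arrays; the cause was not tested. Leaving out each array in turn, the median ran from -0.033 to 0.067 (fractions at E6.5), 0.016 to 0.118 (fractions at E7.5), 0.0091 to 0.159 (stages, GFP+), -0.063 to 0.078 (stages, GFP-), -0.0047 to 0.115 (interaction), 0.014 to 0.074 (fraction averaged over stages) and 0.024 to 0.084 (stage averaged over fractions), with 0 members called. These fits assume that a lone array varies like the other groups. The differences of single members were counted once for each comparison and alternative. By that count 36 changed sign by more than their SE and 7532 did not, and none of the 36 had passed the test. The median SE of a member's difference within a stage was 0.31 log2 units, which limits what 2 arrays per group can show.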

Other observations

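Among genes not described above, 12 targets of the hypoxia response were tested, and 0 passed in any comparison (at most 0.256% of all genes did). At an unadjusted limma p under 0.05 there were 4 of 12 between fractions at E6.5 (5.73% of all genes) and 0 at E7.5 (2.41%). Between stages there were 3 in GFP+ cells (3.85%) and 1 in GFP- cells (6.48%), with 0 for the interaction (2.71%). Averaged over the other factor there were 2 between fractions (5.47%) and 3 between stages (7.2%). The median difference over the 12 was 0.30 between stages averaged over fractions (E7.5 minus E6.5). Between fractions (GFP+ minus GFP-) it was -0.31 averaged over stages, -0.10 at E6.5 and -0.09 at E7.5. The genes named here were chosen after their values were seen. Ddit4, an inhibitor of mTOR signalling, measured 5.89 and 5.2 in GFP- and 4.69 and 4.24 in GFP+ cells at E6.5, and 6.49 and 6.87 in GFP- and 6.49 and 7.52 in GFP+ cells at E7.5. All its values at E7.5 lay above those at E6.5, by 1.84 on average (SE 0.32). The adjusted p was 0.093 by limma. Slc2a1, the glucose transporter GLUT1, measured 11.40 and 11.04 in GFP- and 10.26 and 10.29 in GFP+ cells at E6.5, and 11.61 and 11.60 in GFP- and 10.98 and 11.02 in GFP+ cells at E7.5. It was lower in GFP+ cells at both stages with no overlap, and was the lowest of the list averaged over stages, at -0.77. Egln3, an oxygen sensor that marks hypoxia-inducible factors for degradation, went the other way, at 1.32 at E6.5 and 0.97 averaged over stages. Egln3 measured 6.75 and 7.33 in GFP- and 8.38 and 8.33 in GFP+ cells at E6.5, and 7.67 and 7.80 in GFP- and 8.56 and 8.17 in GFP+ cells at E7.5.

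The subunits of the mitochondrial DNA polymerase differed in pattern. Both genes were chosen after their values were seen. Of the 16 mitochondrial biogenesis genes, which include them, 0 passed in any comparison. Polg, the catalytic subunit, ran from 8.13 to 8.36 at E6.5 and from 8.82 to 9.28 at E7.5 in all cells, a difference of 0.85. Polg2, its accessory subunit, measured 5.69 and 6.04 in GFP- cells at E6.5 and 3.96 and 4.30 in GFP- cells at E7.5, a difference of -1.74 (SE 0.34). The adjusted p was 0.174 by limma. In GFP+ cells Polg2 measured 6.36 and 5.83 at E6.5 and 5.84 and 5.50 at E7.5. The GFP- values at E7.5 lie below the median of all deposited values, so the size of that difference is uncertain.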
